A study of Mus musculus with 23 samples.

Results

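Carboxylesterases are serine hydrolases that cut ester, thioester and amide bonds. The 9 mouse genes described here are Ces1d, Ces1e, Ces1f and Ces1g of the Ces1 subfamily and Ces2a, Ces2b, Ces2c, Ces2e and Ces2g of the Ces2 subfamily. They were taken by name, as symbols mapped to the Ensembl identifiers of the count tables, with earlier results of these data known. They are 9 of 55416 gene rows, and all 9 were among the 13405 genes with enough counts to be tested between the diets. Their transcripts were counted by RNA-seq in mucosa scraped from the proximal small intestine. The mice were C57BL/6JRccHsd, all labelled female and killed at an age of 42 days. From day 21 they had been fed for 3 weeks, in groups balanced for body weight, either a pelleted diet with 16% of energy as galactose and 16% as glucose (labelled GAL42, n = 12) or one with 32% of energy as glucose (labelled GLU42, n = 11). The diets were otherwise the same, so the galactose group also ate glucose. Each library is labelled as a separate mouse. The comparison addresses whether these transcripts differ when galactose takes the place of part of the dietary glucose after weaning.

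As background, carboxylesterases sit in the lumen of the endoplasmic reticulum, where many of them are held by a retrieval signal at the end of the protein. In the enterocyte they meet what has just been absorbed. They hydrolyse ester drugs and prodrugs on first pass through the gut wall, and several family members also act on acylglycerols, cholesteryl esters or retinyl esters. Enzymes of the Ces2 subfamily are known as the main carboxylesterases of the small intestine, while several Ces1 enzymes are best known from liver and adipose tissue. Mouse carries many more copies of these genes than human, arranged as tandem repeats. In the RefSeq annotation of GRCm38 the 4 Ces1 members are direct neighbours on chromosome 8, in the order Ces1d, Ces1e, Ces1f and Ces1g. The 5 Ces2 members lie elsewhere on the same chromosome, in the order Ces2a, Ces2b, Ces2c, Ces2e and Ces2g, with pseudogenes, long non-coding RNAs and Ces2f among them.

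Libraries held 15382583 to 17174721 counts in genes. Enterocyte markers were high in every library, with a summed level of 64385 to 97375 counts-per-million (CPM). Of the listed distal markers, the ileal genes Fabp6 and Slc10a2 averaged 0.168 and 0.752 CPM. Cubn, Enpp7 and Slc51a on that list averaged 772, 398 and 390 CPM. Of the listed proximal markers, Lct and Gata4 averaged 4760 and 247 CPM, but Pdx1 and Cybrd1 6.32 and 2.17 CPM. Galactose replicate 12 carried 225 counts of Y-linked genes and 4 of Xist, against at most 1 and at least 778 in the other libraries, so it goes against its label as female. Galactose replicate 2 had 773 CPM of pancreatic acinar markers, where the median of its group was 34.7 CPM. Values without these libraries are given beside the results they touch.

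The family in this tissue was chiefly Ces2e, Ces2c and Ces2a. Ces2e, an intestinal member of the Ces2 subfamily, gave 61.8% ± 4.16 of all counts of the 9 genes (SD, n = 23 libraries). Ces2c, which has been studied as an acylglycerol hydrolase of the intestine and liver, gave 18.9% ± 1.43. Ces2a gave 11.5% ± 3.16 and Ces2g 4.26% ± 0.854. The 4 Ces1 genes together gave 3.17% ± 0.875. The sum of all 9 genes lay between 2676 and 4138 CPM, whereas the 11 other genes of the carboxylesterase family together reached 8.71 ± 1.47 CPM on galactose (n = 12) and 8.40 ± 2.37 CPM on glucose (n = 11).

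Long transcripts collect more reads, so levels of different genes were compared as CPM per kilobase of the longest annotated transcript. On that scale Ces2e stood at 751 ± 68.2 (SD, n = 23), which was place 66 among 13383 tested genes with a known length. Ces2c followed at 317 ± 51.0 and Ces2a at 197 ± 73.7 CPM per kilobase. This order of the first 3 genes held in 23 of 23 libraries. Of the neighbours in the order of all 9 genes, only Ces2e and Ces2c had ranges that did not overlap. Ces2g reached 49.1 ± 10.9 and Ces1f 31.5 ± 12.1 CPM per kilobase, with Ces2g the higher in 21 of 23 libraries. Ces1f, known from hepatocytes as a triglyceride hydrolase, was the most abundant Ces1 gene in every library, ahead of Ces1e at 9.31 ± 2.35 and Ces1d at 7.90 ± 3.68 CPM per kilobase. Ces1e, also called egasyn, anchors beta-glucuronidase in the endoplasmic reticulum, and Ces1d is the triglyceride hydrolase that supplies lipid for very low density lipoprotein in liver. Those neighbours in the order were not separated, since Ces1e was above Ces1d in 17 of 23 libraries. Ces1g, at 4.18 ± 1.93, and Ces2b, at 3.91 ± 1.63 CPM per kilobase, closed the order, and Ces1g was the higher in 16 of 23 libraries. The complete order of the 9 genes took 7 different forms over the 23 mice.

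**Figure D1:**
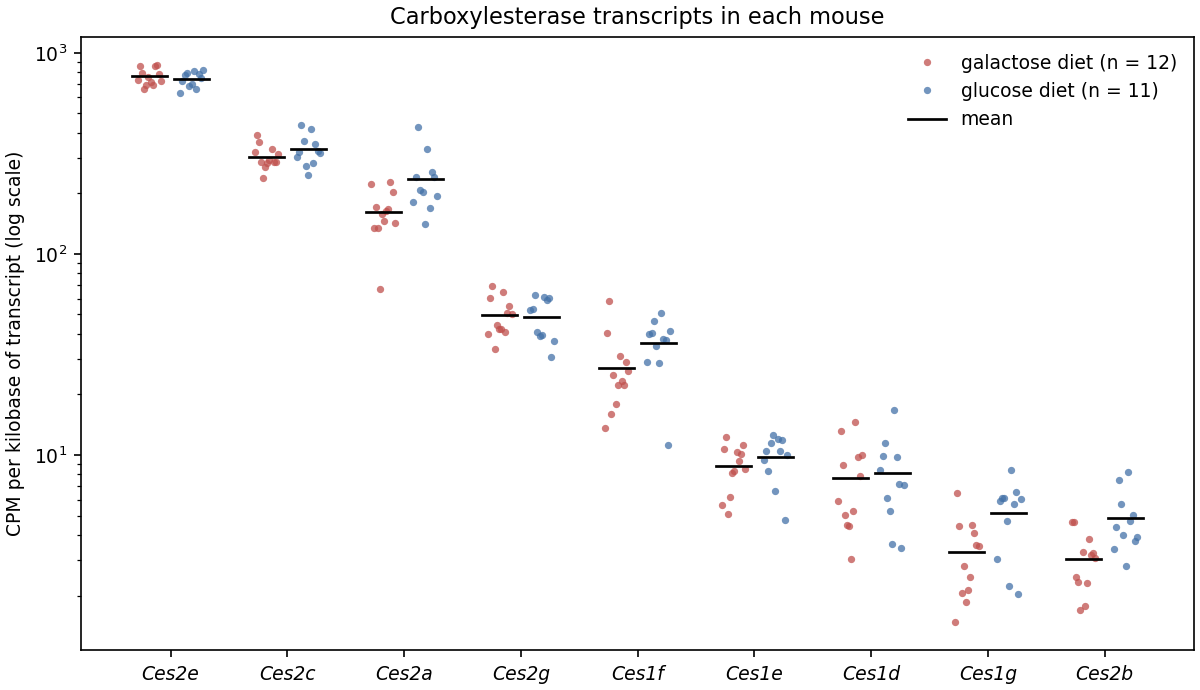
CPM per kilobase of transcript (log axis) of each member in each mouse, with galactose libraries in red, glucose libraries in blue and black bars at the group means. Ces2e averaged 751 and Ces2b 3.91 CPM per kilobase over all libraries, and the diet groups overlapped for every member.

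The members differed in how evenly mice expressed them. The coefficient of variation of Ces2e was 9.66% on galactose and 8.52% on glucose, below the median of 12.2% and 11.8% over 7721 tested genes of at least 10 CPM. Ces2c followed with 13.5% and 17.8%. Ces2g, Ces1e, Ces2a and Ces2b had coefficients of 22.1% to 34.8%, and those of Ces1f, Ces1g and Ces1d ran from 29% to 47.6%. Ces1d was the most variable member in both groups, with a highest to lowest ratio of 4.78 on galactose and 4.87 on glucose. The lowest library was often shared: on glucose, replicate 10 was the lowest for Ces1d, Ces1e, Ces1f, Ces1g and Ces2g, and replicate 6 for Ces2a, Ces2b and Ces2c. On galactose, replicate 5 was the lowest for Ces2a, Ces2b and Ces2c.

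Between the diets, Ces2b, Ces2a and Ces1g had the lowest levels on galactose relative to glucose, but none of the 9 members passed the test. The test was edgeR's quasi-likelihood F test with Benjamini-Hochberg adjustment over all tested genes, and it called 0 of 9 members beside 0% of the 13405 genes. At an unadjusted p under 0.05, 3 of 9 members were lower and 0 higher on galactose, beside 5.72% of all tested genes lower and 8.63% higher. The median log2 difference of the members was -0.15, with 7 negative and 2 positive, while over all tested genes it was -0.0017. Since the members were chosen with earlier results of these data known, these comparisons are a description only. By DESeq2, 1 of 9 members passed with an adjusted p under 0.05, the difference being lower on galactose, beside 0.642% of all tested genes in either direction and 0.172% lower. By limma-voom 0 of 9 passed, beside 0% of all genes, and with sample quality weights 0 of 9, beside 1.25%. With 6 surrogate variables as covariates in edgeR 1 of 9 passed, again lower, beside 0.0224% in either direction and 0.0149% lower. Without galactose replicate 7, the library whose removal raised the calls of edgeR most, 0 of 9 passed, beside 1.64%. The length slope of a library, the slope of its log2 CPM on log2 transcript length relative to the other libraries, averaged -0.0289 ± 0.0553 on galactose and 0.0315 ± 0.0450 on glucose (SD). With this slope as a covariate the differences were -0.56 for Ces2b, -0.41 for Ces2a and -0.73 for Ces1g (edgeR, unadjusted p = 0.0150, 0.0529 and 0.0178), and the number of tested genes at an unadjusted p under 0.05 was 886 in place of 1924. In this bulk tissue, fewer cells that express a gene and less RNA per cell cannot be told apart.

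Ces2b showed the smallest p. On galactose it ranged from 5.78 to 15.9 CPM with a median of 10.7, and on glucose from 9.56 to 28 CPM with a median of 15. The groups overlapped, with 5 galactose libraries below the lowest glucose library and 5 glucose libraries above the highest galactose library. Its mean was 10.4 ± 3.35 CPM on galactose (SD, n = 12) and 16.6 ± 5.77 CPM on glucose (n = 11). The log2 difference was -0.68 ± 0.18 (SE; 95% interval -1.05 to -0.30; edgeR p = 0.000834, adjusted p = 0.138). Ces2b passed with DESeq2 (log2 difference -0.68, adjusted p = 0.0322) and with 6 surrogate variables as covariates in edgeR (-0.83, adjusted p = 0.0345). Over 1952 aligned bases the transcript of Ces2b, 3408 bases long, is 91.6% identical to that of Ces2c, which had far more counts. The bearing of this on the counts of Ces2b was not tested.

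Ces2a had the next smallest p among the members. On galactose it ran from 131 to 448 CPM with a median of 314, and on glucose from 275 to 838 CPM with a median of 409. Of the galactose mice, 10 of 12 lay below the glucose median, and 5 glucose mice lay above every galactose mouse. Galactose mice averaged 316 ± 85.7 CPM and glucose mice 462 ± 160 CPM. The log2 difference was -0.55 ± 0.17 (SE; 95% interval -0.90 to -0.20; edgeR adjusted p = 0.164). The extremes were galactose replicate 5 and glucose replicate 3, and without the latter the difference was -0.43.

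Ces1g has been linked to hepatic lipid secretion and, in this tissue, was a low transcript. It ranged from 3.52 to 15.5 CPM on galactose with a median of 7.57, and from 4.86 to 20.1 CPM on glucose with a median of 14.2. The groups overlapped over most of their range, although 11 of 12 galactose mice lay below the glucose median. Mice on galactose averaged 7.85 ± 3.44 CPM and mice on glucose 12.3 ± 4.70 CPM. The log2 difference was -0.65 ± 0.23 (SE; 95% interval -1.14 to -0.17; edgeR adjusted p = 0.210). Galactose replicate 2, the library with acinar transcripts, was the highest galactose mouse for both Ces1g and Ces2b, and without it the differences were -0.78 for Ces1g and -0.75 for Ces2b.

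Ces1f had 26.2 to 112 CPM on galactose with a median of 46.7, and 21.7 to 97.4 CPM on glucose with a median of 72.8. The groups overlapped, and both the highest mouse of all, on galactose, and the lowest, on glucose, ran against the order of the medians. The log2 difference was -0.41 ± 0.21 (SE; 95% interval -0.84 to 0.02; edgeR adjusted p = 0.361). Ces1e had a log2 difference of -0.15 ± 0.15 (95% interval -0.46 to 0.16) and Ces1d of -0.07 ± 0.25 (95% interval -0.60 to 0.46). Mice differed widely in Ces1d in both groups: it ran from 6.13 to 29.3 CPM on galactose with a median of 13.8, and 6.89 to 33.5 CPM on glucose with a median of 14.4.

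Ces2e, Ces2c and Ces2g had the narrowest intervals. Ces2e ran from 1773 to 2357 CPM on galactose with a median of 2022, and from 1711 to 2206 CPM on glucose with a median of 2029. The groups overlapped almost completely, and 3 galactose mice were above every glucose mouse. Its log2 difference was 0.04 ± 0.06 (SE; 95% interval -0.08 to 0.17; edgeR adjusted p = 0.776). Ces2c ran from 467 to 768 CPM on galactose and from 484 to 864 CPM on glucose, with a log2 difference of -0.12 ± 0.09 (95% interval -0.30 to 0.07; edgeR adjusted p = 0.557). Ces2g averaged 141 ± 31.2 CPM in galactose mice and 139 ± 32.7 CPM in glucose mice, and its log2 difference was 0.02 ± 0.13 (95% interval -0.24 to 0.28). Without galactose replicate 12, the library whose transcripts go against its label, the differences were -0.68 for Ces2b, -0.54 for Ces2a and -0.67 for Ces1g, and 0 of 9 members passed the edgeR test.

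**Figure D2:**
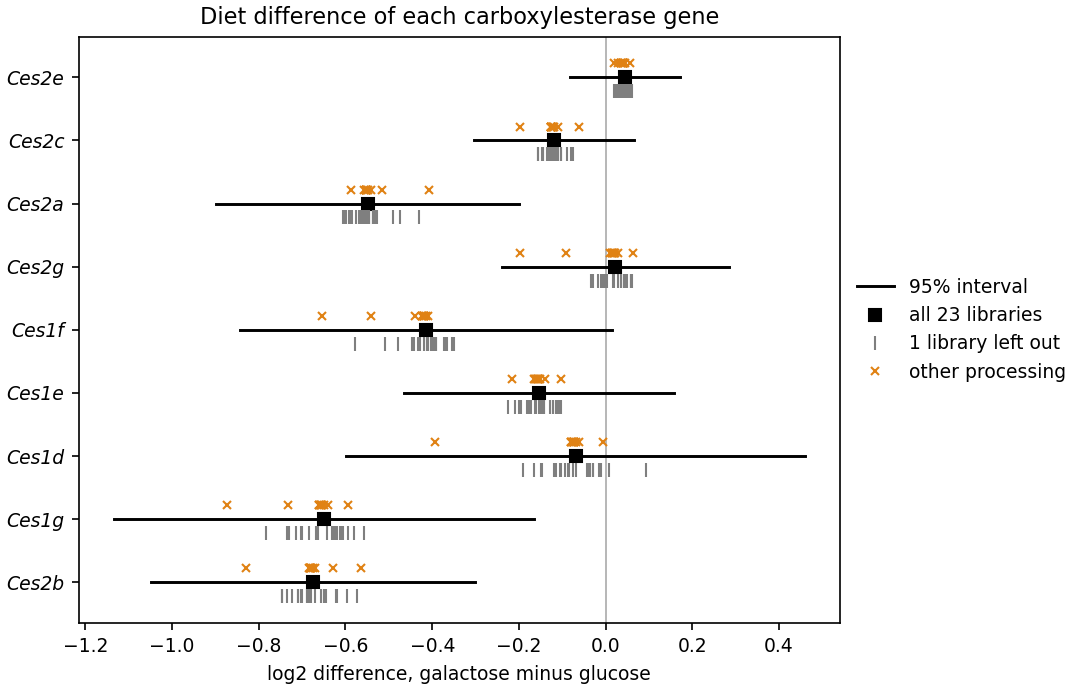
Log2 difference, galactose minus glucose, of each member (squares) with a 95% interval built from the edgeR SE. Grey ticks show the values with 1 library left out and orange crosses those under other processing. Ces2b, Ces2a and Ces1g have intervals wholly below 0, Ces1f reaches 0.02, and the interval of Ces2e is the narrowest.

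The make-up of the family differed in its means between the diets. Ces2e made up 64.0% ± 2.63 of member counts on galactose (range 60.2% to 69.8%) and 59.3% ± 4.25 on glucose (range 50.8% to 66.2%). Ces2a made up 9.75% ± 2.27 on galactose (4.89% to 13.4%) and 13.4% ± 2.94 on glucose (9.65% to 20.2%). Both shares overlapped between the groups. Shares sum to a fixed total, so a lower share of Ces2a raises the others. The share of Ces2c was 18.6% ± 1.60 and 19.2% ± 1.24, and that of the 4 Ces1 genes 2.88% ± 0.827 and 3.49% ± 0.846. As a ratio within each mouse, Ces2a had 0.529 ± 0.148 of the CPM of Ces2c on galactose and 0.695 ± 0.123 on glucose, and the ranges, 0.280 to 0.792 and 0.568 to 0.970, overlapped. The summed level of the family was 3220 ± 337 CPM in galactose mice and 3384 ± 434 CPM in glucose mice, a gap smaller than either SD. No test was made on shares, ratios or sums.

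**Figure D3:**
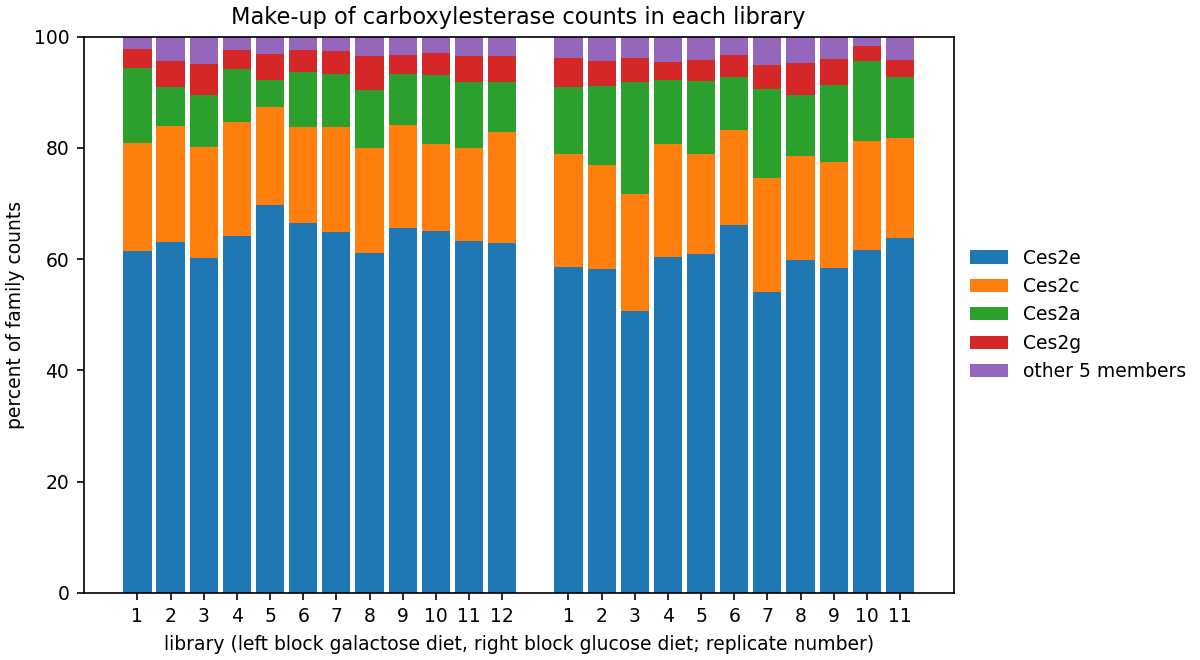
Percent of the summed counts of the 9 members per library (y axis, 0 to 100), galactose mice in the left block and glucose mice in the right block. Ces2e is the largest share in every library, between 50.8% and 69.8%, and the Ces2a band is on average wider on glucose (13.4%) than on galactose (9.75%).

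Across mice the members tended to vary together, with the highest median r, 0.782, among the Ces1 pairs. Correlations were taken between log2 CPM values after the mean of each diet was taken off, over 23 libraries, with a two-sided permutation test within diet and Benjamini-Hochberg adjustment over the 36 pairs. All 36 coefficients were positive, with a median Pearson r of 0.547, and 22 passed at an adjusted p under 0.05 in this permutation test. By Spearman's rho 22 passed as well. Within each diet alone fewer pairs passed, 9 on galactose and 11 on glucose, and 33 and 35 of the 36 coefficients were positive. For comparison, the r of a member with the 13382 other tested genes had a median between -0.0131 and 0.0166, depending on the member, and a 95th percentile between 0.413 and 0.512. Among the 6 pairs of Ces1 genes 6 passed, with r from 0.545 to 0.823. Among the 10 pairs of Ces2 genes 6 passed, with r from 0.168 to 0.768, while within the diets 0 passed on galactose and 3 on glucose. Of the 20 pairs that cross the clusters 10 passed, with r from 0.032 to 0.738. Pairs share library, depth and tissue sample, and no test was made of the difference between these groups of pairs. With 1 library left out the number of pairs that passed stayed between 19 and 24, the fewest without glucose replicate 7, and without galactose replicate 12 it was 22.

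The closest pair was Ces1e and Ces1f, with Pearson r = 0.823 and Spearman's rho = 0.739 (permutation p = 2e-05, adjusted p = 0.00024, for r and p = 0.00012, adjusted p = 0.00156, for rho). Within the diets r was 0.793 on galactose and 0.855 on glucose, and without the 2 libraries farthest from the median of Ces1e it was 0.696. Among 13382 other tested genes, Ces1e was the one most correlated with Ces1f. Ces1d and Ces1g followed with r = 0.801 and rho = 0.773 (permutation p = 2e-05 and 8e-05, adjusted p = 0.00024 and 0.00156), and Ces1g stood in place 10 of all genes for Ces1d. Ces1f and Ces1g had r = 0.800 and rho = 0.758 (permutation p = 1e-05, the smallest the resampling can give, adjusted p = 0.00024). Without glucose replicate 10, the lowest glucose library for all 4 Ces1 genes, r of Ces1e and Ces1f was 0.735 and that of Ces1d and Ces1g 0.768.

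In the Ces2 cluster the closest pair was Ces2b and Ces2c, with r = 0.768 and rho = 0.684 (permutation p = 4e-05 for r, adjusted p = 0.00036 and 0.00319). It reached 0.629 on galactose and 0.900 on glucose, and 0.679 without the 2 farthest libraries. These are also the members with the most similar transcripts. They shared stretches of 50 bases but none of 100 bases. Whether reads of one were counted for the other was not tested. Ces2a followed Ces2b (r = 0.696, rho = 0.616; permutation p = 0.00023 for r, adjusted p = 0.00118 and 0.00728) and Ces2c (r = 0.663, rho = 0.593; permutation p = 0.00074 for r, adjusted p = 0.00266 and 0.0125). The relation of Ces2a with Ces2c was 0.387 on galactose and 0.912 on glucose, and 0.455 without the 2 farthest libraries. Ces2g had low r with its own cluster, 0.168 to Ces2e, 0.307 to Ces2a, 0.334 to Ces2b and 0.447 to Ces2c, none of which passed. Its r was 0.738 with Ces1f and 0.678 with Ces1e (rho = 0.678 and 0.578; permutation, adjusted p = 0.00036 and 0.00148 for r, 0.00319 and 0.0130 for rho), and the difference between these values and those in its own cluster was not tested. Ces2a and Ces1f were the least related pair, with r = 0.032 and rho = 0.114 (permutation, adjusted p = 0.887 and 0.607).

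**Figure D4:**
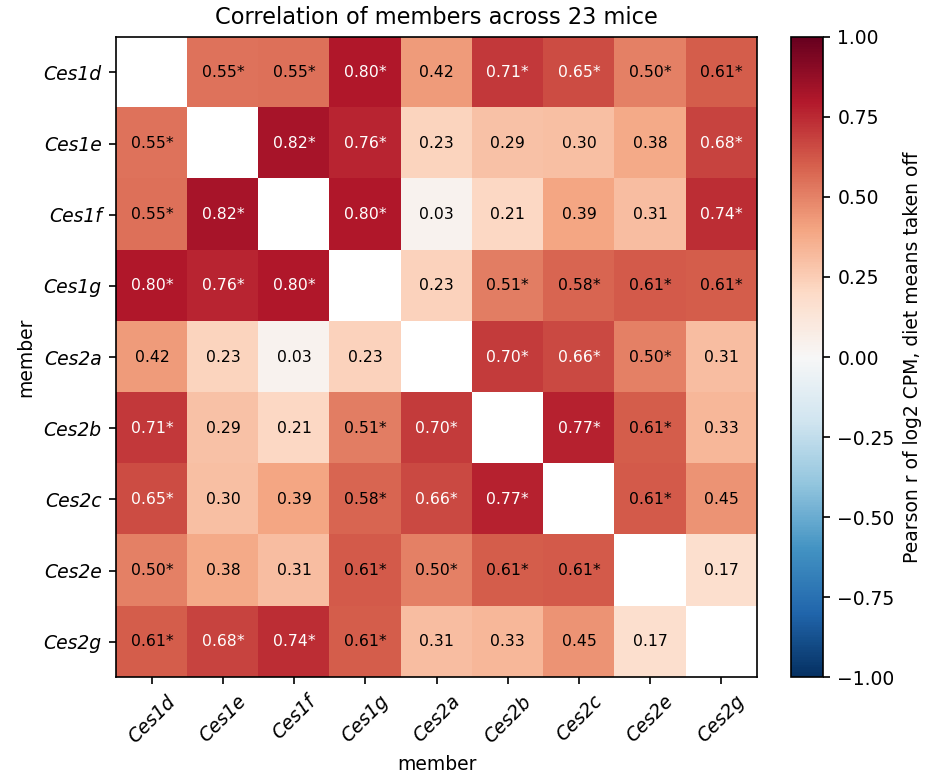
Pearson r of log2 CPM, diet means taken off, for each pair of members over 23 libraries; colour runs from -1 to 1 and stars mark an adjusted p under 0.05 by permutation. All 36 values are positive and the 6 Ces1 pairs, upper left, lie between 0.545 and 0.823.

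**Figure D5:**
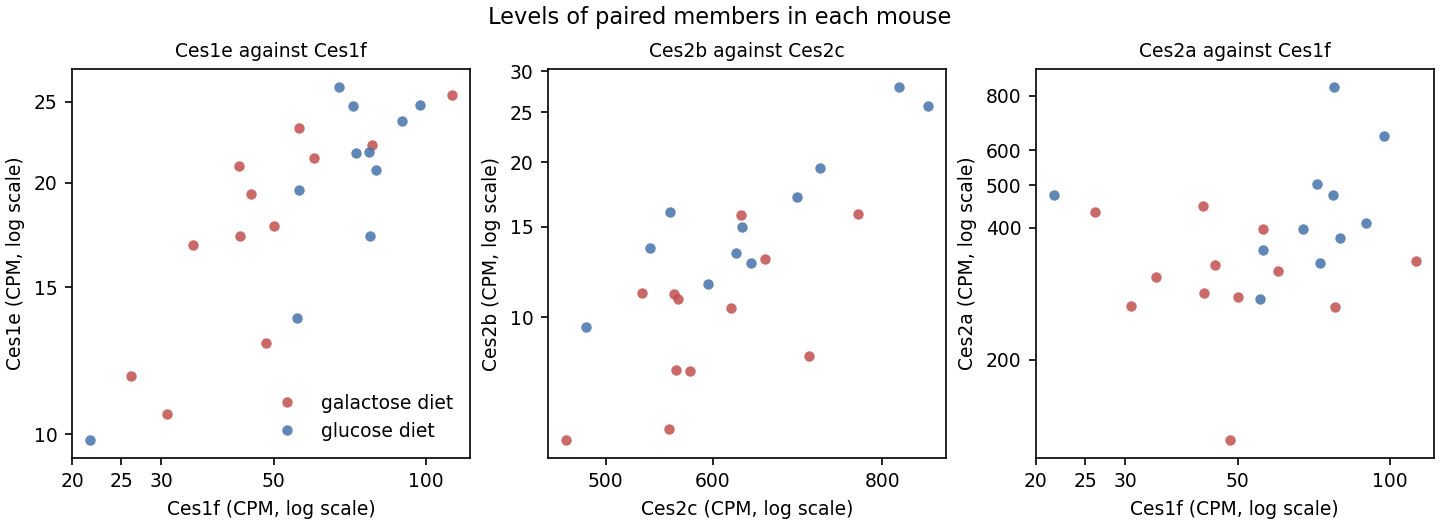
CPM of 3 pairs of members in each mouse on log axes, galactose in red and glucose in blue, without taking off the diet means. Ces1e against Ces1f and Ces2b against Ces2c run along a line (r = 0.823 and 0.768 after the diet means were taken off), while Ces2a shows no trend with Ces1f (r = 0.032).

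The genes outside the family that were most like each member, taken as the 3 highest Pearson r over the same 23 libraries for the 8 members of at least 10 CPM, are given as a description. For Ces2a they were Ugt1a1, a glucuronosyltransferase, and the cytochromes Cyp2c66 and Cyp2c55, with r of 0.854, 0.825 and 0.796. For Ces1e they were Ugt2b35 (0.884), the aldo-keto reductase gene Akr1c19 (0.847) and Aadac, another ester hydrolase of the endoplasmic reticulum (0.816). Ces1f was most like Ugt1a7c (0.805), Akr1c12 (0.793) and Dglucy (0.788). Ces2g was most like Dld (0.835), Ugt1a7c (0.827) and Bpnt1 (0.813), so that Ces1f and Ces2g shared Ugt1a7c. For Ces2c the genes were Gata6 (0.861), a transcription factor of the intestinal epithelium, Atg12 (0.856) and Entpd5 (0.837). Ces2b shared Atg12 (0.793) with it, beside Stx7 (0.824) and Thegl (0.795). Ces2e was most like Dap (0.848), Fbln1 (0.839) and Scp2 (0.828), and Ces1d most like Itpr1 (0.851), Dnajb2 (0.847) and Tmem243 (0.835). With any 1 library left out, the r of Ces2a with Ugt1a1 stayed between 0.770 and 0.901, and that of Ces1e with Ugt2b35 between 0.849 and 0.900.

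The 9 members were also set against the summed CPM of 12 lists of cell type markers, in 108 correlations that were added after the data had been seen. In the permutation test over 23 libraries, 8 of 108 passed at an adjusted p under 0.05, all with Ces2e, Ces2c, Ces2b or Ces2g and none with a Ces1 gene. Ces2e varied with villus-tip markers (r = 0.753, rho = 0.746; p = 7e-05, adjusted p = 0.00756 by permutation), with markers of proximal intestine (r = 0.729, rho = 0.764) and with enterocyte markers (r = 0.665, rho = 0.683), and opposite to smooth muscle markers (r = -0.644, rho = -0.728). These sums rest on a few abundant genes that the lists share: Apoa4, with 25085 CPM on average, is in the villus-tip and enterocyte lists, and Lct and Fabp1, with 4760 and 2712 CPM, are in the proximal and enterocyte lists. With markers of distal intestine the r of Ces2e was also positive, 0.429 (rho = 0.383), but did not pass (adjusted p = 0.209 by permutation). Ces2c, Ces2b and Ces2e ran opposite to crypt and cycling cell markers, with r of -0.626, -0.611 and -0.605 (rho = -0.610, -0.557 and -0.635). Ces2g ran with T cell markers (r = 0.602, rho = 0.626; p = 0.00294, adjusted p = 0.0420 by permutation). The most abundant genes in that sum were Gzma and Gzmb, with 69.6 and 40.9 CPM on average, while Cd3e and Trac averaged 7.91 and 8.74 CPM. Without the 2 farthest libraries the 8 values of r that passed kept their sign and lay between 0.490 and 0.757 in size. Summed T cell markers had a median of 179 CPM on galactose and 145 CPM on glucose, and 9 of 9 T cell genes had a positive log2 difference, 6 of them at an unadjusted p under 0.05 and 0 after adjustment in edgeR. Smooth muscle markers had 8 of 8 negative differences (median -0.27), villus-tip markers 9 of 10 (-0.11), crypt markers 8 of 10 (-0.17) and markers of distal intestine 7 of 9 (-0.25), with 0 passing the edgeR test and 0, 1, 2 and 2 lower at an unadjusted p under 0.05. The part of these lists in the diet values of the members was not tested. Of 10 adipocyte markers 5 averaged under 1 CPM, among them the defining genes Adipoq and Lep at 0.426 and 0.0131 CPM. Others were higher, such as Cidec at 117 and Pparg at 21.5 CPM. These averages hide glucose replicate 1, where Adipoq was at 6.51 and Car3 at 39.9 CPM. On galactose Adipoq reached at most 0.565 CPM. Without glucose replicate 1, edgeR called 0 of 13460 tested genes. Of 12 hepatocyte markers 8 averaged under 1 CPM, among them Alb, Ahsg and Fgb at 0.419, 0.0173 and 0 CPM. Higher ones included Cps1 at 307 and Serpina1b at 7.56 CPM. No member passed with library depth, the length slope of the library or the share of reads outside genes in 27 further permutation tests, although Ces1g, Ces1e and Ces1d had negative r of -0.498, -0.471 and -0.433 with depth (permutation p = 0.0190, 0.0271 and 0.0444, smallest adjusted p = 0.366).

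Promoter sequence was at hand in the RefSeq table (GRCm38.p6) for 6 of the 9 members. It is shown because many pairs of members within a cluster varied together across mice. Each line below holds the 250 bases before the start site, 5′ to 3′ on the strand of the gene. For the 4 Ces2 genes, all on the plus strand, the capitals mark GAACTT, the only run of at least 5 columns that was identical in all 4 when they were aligned. They lie at chr8:104733753-104734002 (Ces2a), chr8:104846818-104847067 (Ces2c), chr8:104926010-104926259 (Ces2e) and chr8:104961468-104961717 (Ces2g).
Ces2a: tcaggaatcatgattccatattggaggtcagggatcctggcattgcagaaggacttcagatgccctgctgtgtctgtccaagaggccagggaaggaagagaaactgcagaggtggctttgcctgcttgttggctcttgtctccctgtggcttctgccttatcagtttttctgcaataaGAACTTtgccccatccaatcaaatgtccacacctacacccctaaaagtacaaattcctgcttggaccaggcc
Ces2c: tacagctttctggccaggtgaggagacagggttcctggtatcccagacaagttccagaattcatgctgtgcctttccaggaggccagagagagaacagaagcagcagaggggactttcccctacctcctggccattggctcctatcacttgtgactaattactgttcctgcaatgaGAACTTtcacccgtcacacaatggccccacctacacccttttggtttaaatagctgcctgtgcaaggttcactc
Ces2e: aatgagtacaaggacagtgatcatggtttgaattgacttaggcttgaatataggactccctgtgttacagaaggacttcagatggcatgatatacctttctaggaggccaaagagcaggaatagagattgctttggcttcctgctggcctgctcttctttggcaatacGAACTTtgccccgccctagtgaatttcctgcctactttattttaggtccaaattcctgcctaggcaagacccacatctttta
Ces2g: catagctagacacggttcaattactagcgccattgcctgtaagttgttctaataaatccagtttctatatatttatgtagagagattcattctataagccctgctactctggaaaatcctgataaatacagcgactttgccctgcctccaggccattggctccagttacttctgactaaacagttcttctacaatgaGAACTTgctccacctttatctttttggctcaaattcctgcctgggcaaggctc
In the alignment 49 of 295 columns were identical in all 4 genes. The run begins 72 bases before the start site in Ces2a, 74 in Ces2c, 82 in Ces2e and 53 in Ces2g. The letters GAACTT, searched on both strands, are also present in 11.5% of 32851 promoter stretches of this length. Pairs of Ces2 promoters were 64.4% to 74.5% identical over the aligned bases. By this measure the promoters of Ces2c and Ces2g were the most alike, over 192 aligned bases, the fewest of these pairs. Ces2a and Ces2c had the most aligned bases, 243, with 67.5% identical. Whether promoter sequence bears on the co-variation was not tested.

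For the Ces1 cluster the promoters of Ces1e at chr8:93229620-93229869 and Ces1g at chr8:93337210-93337459, both on the minus strand, are shown. They were the only Ces1 members with promoter sequence at hand, and this pair had r = 0.765 across mice. Capitals mark TTTATG (the letters of a CDX site), AGATAA or its reverse complement (a GATA site) and, in Ces1g, a TATA box on the reverse strand.
Ces1e: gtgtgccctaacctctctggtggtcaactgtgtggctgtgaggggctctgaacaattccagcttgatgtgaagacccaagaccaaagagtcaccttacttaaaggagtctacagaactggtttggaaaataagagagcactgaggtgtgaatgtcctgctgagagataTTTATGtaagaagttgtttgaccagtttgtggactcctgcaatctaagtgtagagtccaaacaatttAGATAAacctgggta
Ces1g: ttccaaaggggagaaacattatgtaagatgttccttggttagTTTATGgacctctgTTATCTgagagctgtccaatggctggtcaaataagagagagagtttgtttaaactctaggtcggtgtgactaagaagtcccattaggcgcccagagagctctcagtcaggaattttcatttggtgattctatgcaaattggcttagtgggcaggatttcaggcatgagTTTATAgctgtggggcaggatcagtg
These 2 promoters were 67.7% identical over only 93 aligned bases. TTTATG and AGATAA, each searched on both strands, were found in Ces1e, Ces1g and Ces2g, that is in 3 of 6 member promoters, and in 10.8% and 9.99% of all promoters. The other 3 Ces2 promoters held neither. Of the other motifs, AGGTCA, a nuclear receptor half-site, was present in Ces2a only (14% of all promoters) and TATAAA in Ces1g only (12.4%). AGTTCA (11.8%), GTTAAT (6.43%), CAAAGTCCA (0.384%) and TGACNNNGC (10.2%) were found in none of the 6. A match describes letters in this window and not a binding site.

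Near-identical copies limit how well these genes can be counted. Within the Ces2 members other than the pair of Ces2b and Ces2c, transcripts were 76.5% to 84.0% identical, and within the Ces1 members 74.5% to 79.2%. Of all stretches of 100 bases in the transcript of Ces2c, 16.0% were found unchanged in Ces2d-ps or in the pseudogenes Gm8798 and Gm6831, and of those in Ces2a 10.7% were found in the pseudogene Gm7208. For stretches of 50 bases the shares were 42.2% for Ces2c, 22.2% for Ces2a and 9.56% for Ces2b, against 1.28% to 3.95% for the other 6 members. The matches of Ces2b included genes outside the family, such as Grk4 and Mef2a, and at 100 bases its share was 0.0907%. The read length is not given in the sources used here, and reads that fit several places are a separate row of the count tables, so the levels of Ces2c and Ces2a are uncertain and may be too low.

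Of the 11 other carboxylesterase genes, 4 passed the filter on counts and 0 of 4 passed the edgeR test. On galactose and on glucose, Ces2h averaged 3.16 ± 0.970 and 2.71 ± 0.832 CPM, Ces3a 3.02 ± 0.578 and 3.16 ± 1.24 CPM, and Ces1c 1.10 ± 0.271 and 0.988 ± 0.320 CPM. None of these 3 genes reached the level of the least abundant member, and their log2 differences were 0.22, -0.07 and 0.16. Ces1h and Ces4a had no count in any library.

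Genes that share the work of carboxylesterases were described by lists. Among 26 other ester and neutral lipid hydrolases 22 were tested, 0 passed by edgeR or DESeq2, and 8 had a positive and 14 a negative difference, with a median of -0.02. The smallest p in that list belonged to Lpl, lipoprotein lipase, which averaged 1.83 ± 0.718 CPM in galactose mice and 3.53 ± 3.39 CPM in glucose mice (log2 difference -0.95 ± 0.31; edgeR adjusted p = 0.191), followed by Dagla (-0.34) and Bphl (0.19). Lpl is also an adipocyte gene, and it reached 13.5 CPM in glucose replicate 1, the library with the most Adipoq (6.51 CPM). Without that library its difference was -0.47. Among 28 genes of triglyceride synthesis and chylomicron assembly 0 passed by edgeR, 15 were positive and 13 negative, and the median was 0.02. There the fatty acid translocase Cd36 averaged 44.0 ± 13.6 CPM in galactose mice and 65.3 ± 18.5 CPM in glucose mice (log2 difference -0.57 ± 0.16; edgeR adjusted p = 0.139; DESeq2 adjusted p = 0.0466), Apob had a difference of -0.32 and Fabp1 of 0.21. With surrogate variables as covariates the difference of Cd36 was -0.20, and with the length slope that of Apob was 0.0029.

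Among 50 other genes of xenobiotic metabolism 47 were tested and 0 passed by edgeR or DESeq2. Their median difference was -0.11, with 35 negative and 12 positive. At an unadjusted p under 0.05 there were 8 lower and 2 higher, beside 5.72% lower and 8.63% higher over all tested genes. Its median and that of the carboxylesterases, -0.15, were both below the -0.0017 of all tested genes. Ugt2b5 averaged 18.3 ± 6.39 CPM in galactose mice and 27.9 ± 8.68 CPM in glucose mice (log2 difference -0.61 ± 0.18; edgeR adjusted p = 0.162), the retinal dehydrogenase gene Aldh1a1 had a difference of -0.49 and the glutathione transferase gene Gsta3, at 1.05 CPM on galactose, of -0.81. Among 30 nuclear receptors and transcription factors of enterocytes 0 passed by edgeR, with 17 negative, 13 positive and a median of -0.01. Esrra averaged 276 ± 19.2 CPM in galactose mice and 240 ± 20.2 CPM in glucose mice (0.20 ± 0.05; edgeR adjusted p = 0.138; DESeq2 adjusted p = 0.0322), the glucocorticoid receptor gene Nr3c1 a difference of -0.20 and the vitamin D receptor gene Vdr of -0.18. With the length slope as a covariate the differences of Nr3c1 and Vdr were -0.07 and -0.06. The 3 KDEL receptors, which return proteins to the endoplasmic reticulum, had differences of -0.17 (Kdelr3), -0.06 (Kdelr1) and 0.02 (Kdelr2).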

How the data were processed

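STAR, HTSeq and the build GRCm39 are named in the submitters' processing notes. The sources used here do not give their versions, the annotation, the strandedness or the read length. The authors deposited raw counts per gene for each mouse. The 5 rows that name no gene, which held 13.5% of reads, were left out. Per the labels' protocols, RNA came from snap-frozen scrapings and was sequenced on a DNBSEQ platform.

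Gene symbols and lengths (the longest transcript) came from GENCODE M21 and RefSeq tables on GRCm38 through Ensembl identifiers, which matched 52083 of 55416 rows and every listed gene. Genes were filtered with filterByExpr (edgeR 4.0.16, R 4.3.3) and fitted over all 23 libraries with TMM scaling and diet as the only term. SE is the log2 difference divided by the root of F. The 95% interval was built from this SE and a t distribution, with degrees of freedom from the numbers of libraries and groups alone. CPM are counts-per-million of the counts in genes, scaled by TMM; correlations used log2 CPM with a prior count of 2 and 100000 resamples. In simulated counts for 13268 genes, edgeR called 34.7% of the genes set to a 1.25-fold change, 70% at 1.5-fold and 93.5% at 2-fold, as well as 0.0535% of unchanged genes. The changed genes were picked at random, and counts were drawn for each gene on its own, without factors shared by a library. These shares therefore do not give the power for the members.

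The named genes were all 9 members, other family genes of at least 1 CPM, the 3 genes of smallest p in each of 6 pathway lists and the 3 genes most like each member. Members and lists were chosen with earlier results of these data known. Correlations with marker lists and with library measures were added after the data had been seen. The alternatives were other scalings, DESeq2 1.42.0, limma-voom (limma 3.58.1) with and without quality weights, other filters, robust fitting, the length slope (slope of a library's log2 CPM on log2 transcript length) or 6 surrogate variables (sva 3.50.0) as covariates, and each library left out. Replicate numbers follow the order of the samples and pair no mice.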

Additional observations from a re-analysis of the deposited data

How the results depend on the processing

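The number of members that passed was 1 with DESeq2 and 1 with surrogate variables as covariates, Ces2b in both, and 0 in all other settings run, the 23 with 1 library left out included. The differences of Ces1e, Ces1f, Ces1g, Ces2a, Ces2b, Ces2c and Ces2e kept their direction in 34 of 34 settings. Their size moved by over 1.5 times for Ces1f with surrogate variables (-0.65), for Ces2c with the length slope (-0.06), with surrogate variables (-0.20) and without glucose replicate 3 (-0.07), and for Ces2e in 7 settings (down to 0.018). Ces1d was -0.39 with surrogate variables. With the length slope as a covariate, no adjusted p of a member by edgeR was under 0.737, against 0.138 for Ces2b without it, and the difference of Ces2b was -0.56. The sign turned for Ces1d with 1 library left out (range -0.191 to 0.0927), for Ces2g with the length slope (-0.0920), with surrogate variables (-0.197) and with 1 library left out (-0.0344 to 0.0604), for Ces3a with limma-voom (0.0293), with quality weights (0.0747) and with 1 library left out (-0.156 to 0.0307), for Apob with the length slope (0.0029) and for Kdelr2 with the length slope (-0.0372), with surrogate variables (-0.0640) and with 1 library left out (-0.0016 to 0.0459); the cause was not tested. The share of Ces2e was 55.2% per kilobase against 61.8% by counts, since its transcript is among the longer ones, and 61.4% to 62.3% with 1 library left out. Pairs that passed were 19 without taking off diet means, 21 on library totals, 22 with a prior count of 0.5, 22 by Spearman's rho and 19 to 24 with 1 library left out, against 22. The r of Ces1f and Ces2a was -0.016 on library totals and -0.033 to 0.135 with 1 library left out. Without galactose replicate 7, edgeR called 219 genes and 0 members, with an adjusted p of 0.0642 for Ces2b, 0.0425 for Cd36 and 0.0436 for Esrra. No paired analysis was possible because the labels pair no mice and the replicate numbers only follow the order of the samples. Ces1g, with 56 to 308 counts per library, had coefficients of variation of 43.8% on galactose and 38.1% on glucose. Those of Ces2e, with 28956 to 36410 counts, were 9.66% and 8.52%. The part of the number of counts in this spread was not tested.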
